A study of Mus musculus with 8 samples.

Results

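The 46 genes described here encode the protein import machinery of mitochondria, the chaperones that fold what is imported, the peptidases that trim it and the proteases that remove it. They were matched by gene name in a deposited table of 55421 genes, and all 46 were found. By role they are 9 genes of the translocase of the outer membrane (TOM) and its helpers, 6 small TIM chaperones of the intermembrane space, 10 genes of the inner membrane translocases TIM22 and TIM23 and their import motor, 3 presequence peptidases, 6 chaperones, and 12 quality control proteases and prohibitins. RNA came from cardiac right ventricles of 4 POLG mice, homozygous for the D257A allele of Polg (libraries E to H), and of 4 wild type (WT) mice (libraries A to D). The D257A substitution removes proofreading from polymerase gamma, which copies mitochondrial DNA. All mice were female, 9 to 10 months of age and came from heterozygous breeding of the Jackson Laboratory strain B6.129S7(Cg)-Polgtm1Prol/J, so the allele is in the germline and in every cell type of the tissue. Polyadenylated RNA was sequenced from stranded libraries, and the deposited unit is FPKM, the fragments of a gene scaled to transcript length in kilobases and to the mapped fragments of the library.

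Most mitochondrial proteins are made in the cytosol and enter through the TOM pore. Those with a cleavable presequence pass on through TIM23, are pulled in by the mitochondrial Hsp70 (Hspa9) and are trimmed by the processing peptidase, while carrier proteins are led by the small TIM chaperones to TIM22. When proteins misfold inside the organelle, cells can raise the RNA of mitochondrial chaperones and proteases, a program called the mitochondrial unfolded protein response, and Hspd1, Hspe1, Lonp1 and Clpp are the genes most used to read it. The comparison asks how the RNA of this machinery stood in POLG ventricles.

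The stretches around the starts of 3 genes are shown because their values carry the partner comparisons made further on: Hspe1, the cochaperonin whose start lies head to head with that of its partner Hspd1, and Clpx and Clpp, the unfoldase and the peptidase of 1 protease. Each runs from 250 bases before to 50 bases after the start, 5′ to 3′ on the strand of the gene, from RefSeq (GRCm38.p6), and all 3 genes lie on the plus strand, at chr1:55087898-55088197 for Hspe1, chr9:65294010-65294309 for Clpx and chr17:56990014-56990313 for Clpp. Capitals mark matches, on either strand, to a heat shock element, spelled GAANNTTC, to the motif of nuclear respiratory factor 1, spelled GCGCATGCG, and to an ETS-type motif, spelled GGAAGTG. The GC box was searched as GGGCGG. The CCAAT box was searched by the letters of its name.
Hspe1: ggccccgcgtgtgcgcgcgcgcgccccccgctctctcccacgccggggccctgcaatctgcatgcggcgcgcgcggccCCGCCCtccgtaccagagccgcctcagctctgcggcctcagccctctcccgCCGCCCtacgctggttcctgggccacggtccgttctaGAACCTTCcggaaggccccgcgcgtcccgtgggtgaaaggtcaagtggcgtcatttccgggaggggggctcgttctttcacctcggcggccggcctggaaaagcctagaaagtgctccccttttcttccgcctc
Clpx: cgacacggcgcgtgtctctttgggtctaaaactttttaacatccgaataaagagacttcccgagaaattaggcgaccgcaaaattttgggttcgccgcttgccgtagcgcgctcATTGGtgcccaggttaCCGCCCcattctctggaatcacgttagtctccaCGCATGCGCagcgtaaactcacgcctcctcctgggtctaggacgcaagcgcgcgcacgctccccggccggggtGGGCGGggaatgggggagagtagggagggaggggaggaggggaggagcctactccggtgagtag
Clpp: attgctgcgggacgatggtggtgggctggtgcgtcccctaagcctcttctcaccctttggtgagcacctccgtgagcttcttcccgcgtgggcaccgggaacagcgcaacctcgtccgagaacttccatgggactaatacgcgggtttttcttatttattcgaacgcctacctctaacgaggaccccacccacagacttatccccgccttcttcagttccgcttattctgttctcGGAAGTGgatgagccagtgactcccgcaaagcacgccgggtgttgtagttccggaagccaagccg
In the Hspe1 window the capitals are a heat shock element, which begins at -84, and 2 GC boxes read on the minus strand. The Clpx window holds a CCAAT box and a nuclear respiratory factor 1 motif, both on the minus strand, and a GC box on each strand. The Clpp window holds an ETS-type motif at -15 and none of the other letters searched. The heat shock element of Hspe1 begins at base 55088064 of chromosome 1, and the same bases are in the window of the second annotated start of Hspd1, on the other strand. The first annotated start of Hspd1 lies 95 bases past that of Hspe1, so from that start the 2 genes overlap on opposite strands.

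Some facts of the libraries bear on what follows. FPKM hold no read totals, and rough depths read from the spacing of the lowest values, in units of 1 000 000 fragments, were 15.3 to 22.1 in POLG and 13.6 to 22.8 in WT. Polg itself was at 3.13 to 3.88 FPKM in POLG and 3.89 to 4.84 FPKM in WT, and since D257A is a substitution its level does not check the labels. Ventricular muscle markers were abundant in every library, with a summed level of 9444 to 11910 FPKM in POLG and 12440 to 14810 FPKM in WT over 10 genes, of which Tnni3 and Myh6 were lower in POLG (limma, adjusted p = 0.00892 and 0.0370). Of 5 erythroid genes 4 were higher in POLG, with a summed level of 2722 to 4885 FPKM in POLG and 889.8 to 1956 FPKM in WT. WT C and WT D stood apart from the other 6 libraries in atrial RNA, with Myl7 at 51.7 and 109.9 FPKM against at most 0.498 FPKM elsewhere, and in the nuclear RNA Malat1, at 237 and 211 FPKM against at most 71.4 FPKM. Their mesothelial sums were 16.2 to 18.6 FPKM, against at most 8.67 FPKM elsewhere. Among the ventricular genes Myh7 went the other way (log2 fold change 0.91, limma adjusted p = 0.153). The smooth muscle gene Myh11 was lower in POLG (-0.50, adjusted p = 0.0370) and the skeletal actin gene Acta1 higher (2.03, adjusted p = 0.0339). Neither stood for its whole list. Acta2 and Tagln were at -1.17 and -0.39, Rgs5, Pdgfrb and Kcnj8 at 0.043, 0.083 and 0.026, and the skeletal gene Ckm at -0.098, none of them called. In bulk tissue, fewer cells of a type and less RNA per cell cannot be told apart.

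Of the 46 genes, 45 did not pass the test and 1 was lower in POLG. Tomm40l was the gene that passed (limma on log2(FPKM + 1), adjusted p = 0.0424). None was higher, against 0.694% of the 10236 genes tested, those averaging 1 FPKM or more over the libraries, and the 1 lower gene (2.17% of the 46) stands beside 2.12% of all genes tested, so the share called was that of the background. At an unadjusted p under 0.05 from the same test there were 1 higher gene, Clpx (2.17%, beside 4.61% of all genes tested), and 11 lower ones (23.9%, beside 17.6%). When FPKM were rescaled between libraries by median ratio, 1.26% of all genes were called higher and 1.17% lower, and none of the 46 was called in either direction (smallest adjusted p = 0.0606, Hspe1).

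The fold changes were small. The median over the 46 genes was -0.10 on the log2(FPKM + 1) scale, POLG minus WT, and over all genes tested it was -0.087. After median ratio scaling both medians moved to 0.0046 and 0.0047, the 46 genes and all genes in that order. Below 0 were 36 of the 46 genes (78.3%) and 68.3% of all genes as deposited, and 22 of the 46 after median ratio scaling. By role the medians were -0.091 for TOM, -0.18 for the small TIM chaperones, -0.062 for TIM22 and TIM23, -0.18 for the peptidases, -0.10 for the chaperones and -0.073 for the proteases and prohibitins. After median ratio scaling the medians by role were 0.016, -0.082, 0.015, -0.070, 0.0020 and 0.020 in the same order. These are descriptions of the lists and were not tested.

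**Figure D1:**
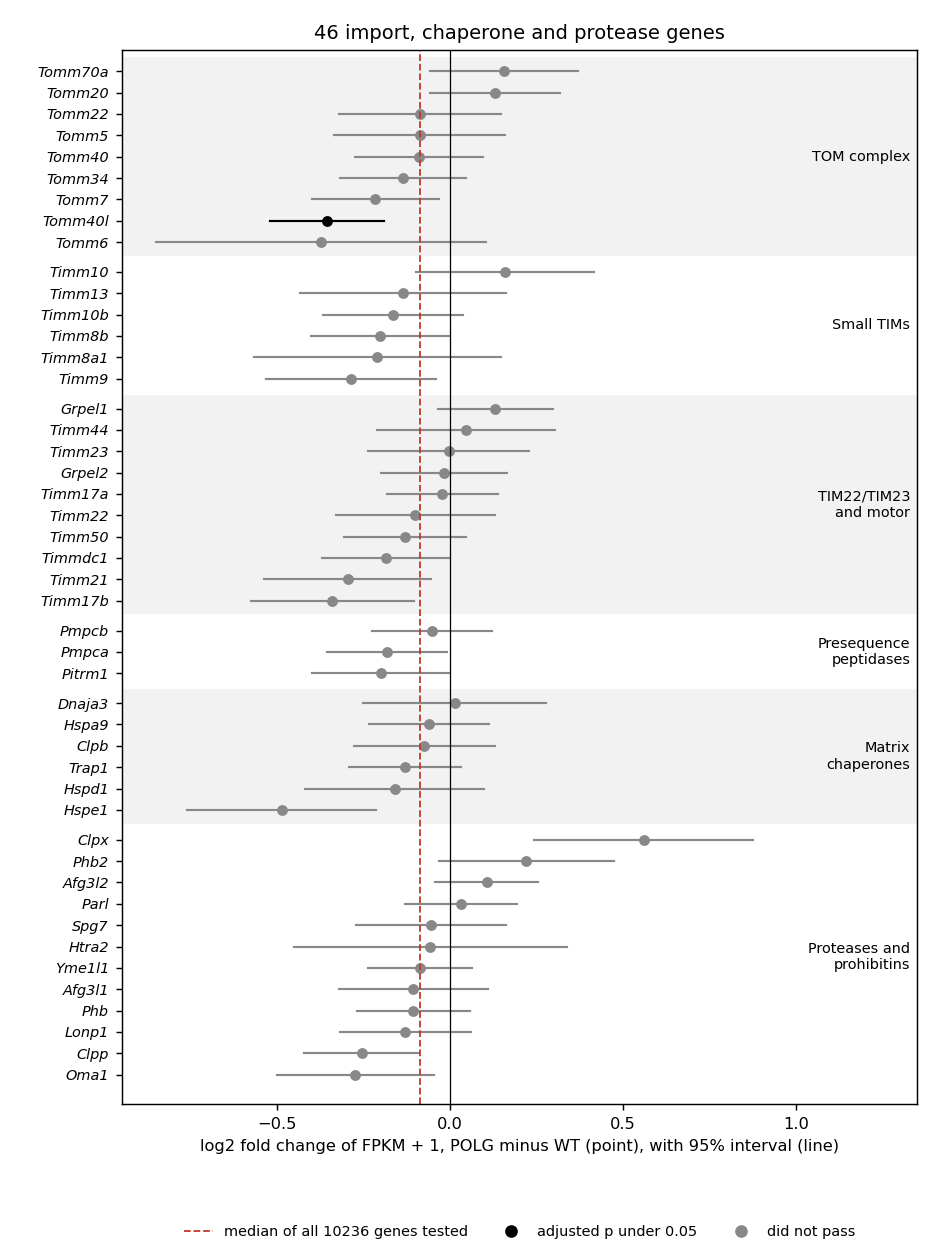
Log2 fold change of FPKM + 1, POLG minus WT, with its 95% interval from limma, for the 46 genes by role. The black point is Tomm40l, the gene that passed, the dashed line is the median of all genes tested at -0.087, and Clpx at 0.56 and Hspe1 at -0.49 lie farthest out.

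The intervals bound the size of the changes of FPKM + 1, a scale that understates the change of low genes. The log2 fold change of Timm9, for example, was -0.29 on this scale and -0.43 with a pseudocount of 0.1. A 1.5-fold rise of FPKM + 1 is 0.585 on the log2 scale. For 45 of the 46 genes the upper end of the 95% interval lay below it, with Clpx as the exception. For 43 the whole interval lay within 1.5-fold in either direction. The counts were not made for FPKM itself. Among the 21 chaperones, peptidases and proteases the count below a 1.5-fold rise was 20. After median ratio scaling the counts were 44 of 46 and 19 of 21, with Phb2 as the further exception. The upper end was 0.098 for Hspd1, -0.21 for Hspe1, 0.06 for Lonp1 and -0.091 for Clpp on the log2 scale as deposited. Their log2 fold changes as deposited were -0.16, -0.49, -0.13 and -0.26 in the same order. After median ratio scaling they were -0.044, -0.37, -0.016 and -0.14, so these upper ends hold for the values as deposited only.

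In 10 of the 46 genes the 4 POLG and the 4 WT libraries did not overlap. Every POLG library was above every WT library in 1 gene, Grpel1 (2.17%, beside 2.96% of all genes tested). In 9 genes all POLG values lay under all WT values (19.6%, beside 12.9% of all genes tested), namely Tomm7, Tomm40l, Timm9, Timm17b, Timm21, Timmdc1, Pmpca, Hspe1 and Clpp. After median ratio scaling 5 genes separated in each direction, beside 6.68% of all genes above and 6.85% below. Those below were Tomm7, Tomm40l, Timm17b, Hspe1 and Clpp, and those above were Tomm20, Tomm70a, Grpel1, Clpx and Afg3l2. POLG H was the lowest of the 8 libraries in 24 of the 46 genes (52.2%) and in 40.2% of all genes tested, and its size factor under median ratio scaling was 0.867, where the others reached up to 1.09. Its part in these counts was not tested beyond that scaling and its own removal.

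On the FPKM scale, which is per transcript length, Hspa9 was highest, with a mean of 128 FPKM over the 8 libraries, followed by Hspd1 at 94.1, Timm8b at 71.9, Timm23 at 59.9 and Phb at 54.03 FPKM. Timm9, Grpel2 and Timm22 were lowest, with 1.62, 1.69 and 1.97 FPKM. Neighbours in this order could overlap, as did Phb at 48.05 to 54.5 FPKM in POLG and 52.2 to 59.1 FPKM in WT and Tomm5 at 43.6 to 60.1 FPKM in POLG and 50.4 to 61.4 FPKM in WT.

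**Figure D2:**
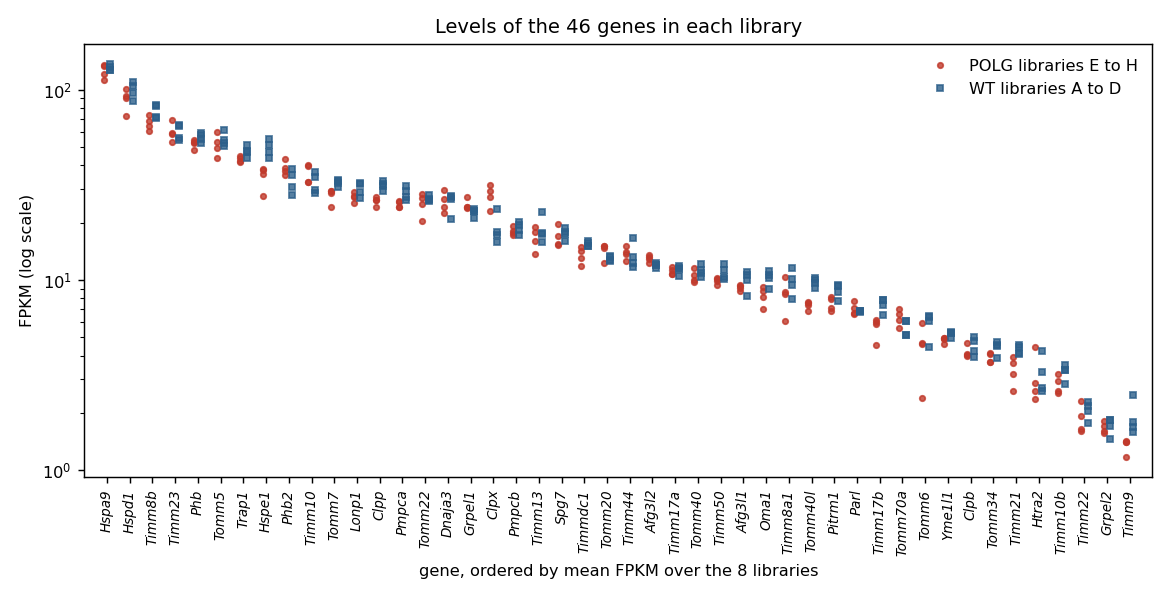
FPKM of the 46 genes in each library on a log axis, POLG libraries E to H as red circles and WT libraries A to D as blue squares, ordered by the mean over the 8 libraries. The order runs from Hspa9 at 128 FPKM to Timm9 at 1.62 FPKM, and Clpx shows POLG circles mostly above WT squares.

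At the outer membrane, Tomm40l was lower in POLG and the pore subunit it resembles did not pass, and the difference between them was not tested. Tomm40l, a paralog of the pore subunit Tomm40, was at 7.697, 7.58, 7.41 and 6.88 FPKM in POLG E to H, against 9.04, 10.05, 9.63 and 10.2 FPKM in WT A to D. The highest POLG library lay below the lowest WT library, and Tomm40l was lower in POLG by a log2 fold change of -0.36 (95% interval -0.52 to -0.19). Tomm40 itself was at 9.97, 11.5, 10.6 and 9.703 FPKM in POLG E to H, against 10.4, 10.9, 12.2 and 11.3 FPKM in WT A to D, with overlapping groups and a log2 fold change of -0.091 (limma, adjusted p = 0.544). The call of Tomm40l ended without any 1 of the 8 libraries (adjusted p from 0.0708 to 0.126), under median ratio scaling (0.0677) and without WT C and WT D together (0.209). Its log2 fold change was -0.39 to -0.33 with 1 library left out, -0.33 without WT C and WT D, and -0.25 under median ratio scaling. Tomm40l (chr1:171216011-171222514, minus strand, mm10) shares 64.3% of its exonic bases with Nr1i3 on the opposite strand, and Nr1i3 was at most at 0.13 FPKM.

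The receptors and small subunits of TOM did not pass the test. Tomm7, a small subunit that tunes the stability of the complex, was at 29.2, 28.6, 29.5 and 24.3 FPKM in POLG E to H, against 30.9, 33.1, 32.3 and 33.7 FPKM in WT A to D, so the groups did not overlap, with POLG H lowest (log2 fold change -0.22, limma adjusted p = 0.169). Tomm6, another small subunit, was at 4.66, 4.61, 5.95 and 2.41 FPKM in POLG E to H, against 6.36, 6.08, 4.44 and 6.502 FPKM in WT A to D, and the groups overlapped because WT C lay below POLG E, F and G. A gene read through Tomm6, Gm21981, shares 76% of its exonic bases on the same strand and was at 4.19 to 6.18 FPKM, and with its FPKM added the log2 fold change of Tomm6 was -0.12 in place of -0.37. The presequence receptor Tomm20 was at 12.3 to 15.1 FPKM in POLG and 12.5 to 13.4 FPKM in WT, where POLG E, F and G lay above all WT libraries and POLG H below them. Tomm70a, the receptor for carrier proteins, was at 5.58 to 7.05 FPKM in POLG and 5.11 to 6.104 FPKM in WT, Tomm22, the central receptor, at 20.5 to 28.5 FPKM in POLG and 25.9 to 28.03 FPKM in WT, and Tomm34, a cytosolic helper that binds Hsp70 and Hsp90, at 3.69 to 4.15 FPKM in POLG and 3.87 to 4.73 FPKM in WT.

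The small TIM chaperones, which shield hydrophobic proteins between the membranes, gave 0 calls by limma. Of the 6, 1 had all POLG values under all WT values, as had 12.9% of all genes tested, and 2 were lower at an unadjusted p under 0.05, as were 17.6% of all genes tested. Timm9 was at 1.17, 1.404, 1.43 and 1.42 FPKM in POLG E to H, against 1.79, 1.59, 2.49 and 1.69 FPKM in WT A to D, with every POLG library below every WT library and WT C well above the other WT libraries (log2 fold change -0.29, limma adjusted p = 0.173). Its partner in the hexamer, Timm10, was at 32.8, 39.7, 40.3 and 32.5 FPKM in POLG E to H, against 34.7, 36.9, 28.8 and 29.5 FPKM in WT A to D, and here WT C and WT D were the lowest of all. Timm8b, which pairs with Timm13, was at 64.4, 60.6, 73.5 and 68.5 FPKM in POLG E to H, against 72.2, 70.6, 82.3 and 82.9 FPKM in WT A to D, with POLG G above WT A and WT B. Timm13 was at 18.96, 17.9, 15.96 and 13.7 FPKM in POLG E to H, against 15.9, 17.7, 17.5 and 22.6 FPKM in WT A to D, with WT D highest and POLG H lowest. Timm10b, which docks on TIM22, was at 2.94, 2.598, 3.195 and 2.56 FPKM in POLG E to H, against 2.85, 3.36, 3.57 and 3.36 FPKM in WT A to D, and POLG G lay above WT A. The last of the class, Timm8a1, was at 6.07 to 10.3 FPKM in POLG and 7.93 to 11.6 FPKM in WT.

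At the inner membrane the groups separated in Timm17b and overlapped in its paralog, and neither passed. Timm17b, one of a pair of subunits that shape the TIM23 channel, was at 5.86, 6.18, 6.03 and 4.57 FPKM in POLG E to H, against 6.53, 7.88, 7.36 and 7.89 FPKM in WT A to D. The groups did not overlap, with POLG lower, and the log2 fold change was -0.34 (limma, adjusted p = 0.112). Its paralog Timm17a was at 11.3, 11.8, 10.7 and 10.7 FPKM in POLG E to H, against 10.5, 11.4, 11.8 and 11.6 FPKM in WT A to D, with a log2 fold change of -0.023 (95% interval -0.18 to 0.14) and overlapping groups. Timm21, which links TIM23 to TOM, was at 3.66, 3.21, 3.94 and 2.61 FPKM in POLG E to H, against 4.098, 4.46, 4.12 and 4.58 FPKM in WT A to D, without overlap between the groups. Timmdc1, a complex I assembly factor named for its likeness to this family, was at 13.1, 14.2, 14.8 and 11.9 FPKM in POLG E to H, against 15.1, 15.97, 15.6 and 15.1 FPKM in WT A to D, also without overlap. Neither passed (limma, adjusted p = 0.156 for Timm21 and 0.225 for Timmdc1).

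None of the remaining inner membrane genes passed. Timm23, the channel, had a log2 fold change of -0.0049 (52.9 to 69.1 FPKM in POLG and 54.3 to 65.5 FPKM in WT), Timm44, which tethers the motor, 0.046 (12.6 to 15.1 FPKM in POLG and 11.7 to 16.7 FPKM in WT), Timm50, the receptor, -0.13 (9.42 to 10.2 FPKM in POLG and 10.1 to 12.1 FPKM in WT), and Timm22, the carrier channel, -0.10 (1.603 to 2.301 FPKM in POLG and 1.78 to 2.28 FPKM in WT). Grpel1, the main nucleotide exchange factor of Hspa9, was at 23.8, 24.2, 27.4 and 24.2 FPKM in POLG E to H, against 21.2, 23.5, 22.9 and 22.9 FPKM in WT A to D. It was the 1 gene of the 46 in which every POLG library lay above every WT library, with a log2 fold change of 0.13 (95% interval -0.037 to 0.30, limma adjusted p = 0.329). The second exchange factor, Grpel2, was at 1.604, 1.81, 1.71 and 1.57 FPKM in POLG E to H, against 1.83, 1.46, 1.83 and 1.72 FPKM in WT A to D, with overlapping groups.

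The 3 presequence peptidases all had log2 fold changes below 0 and none passed. At an unadjusted p under 0.05, 2 of the 3 were lower (17.6% of all genes tested), and 1 had POLG wholly below WT (12.9% of all genes tested). Pmpca, the subunit of the processing peptidase that holds the substrate, was at 25.9, 25.7, 24.2 and 24.2 FPKM in POLG E to H, against 29.4, 31.3, 26.3 and 27.1 FPKM in WT A to D, all POLG libraries below all WT libraries. Its catalytic partner Pmpcb was at 18.03, 17.3, 19.2 and 17.6 FPKM in POLG E to H, against 20.1, 19.5, 17.1 and 18.2 FPKM in WT A to D, and WT C was lower than each POLG library. Pitrm1, which degrades cleaved presequences and can also degrade amyloid beta, was at 7.95, 8.103, 6.88 and 7.13 FPKM in POLG E to H, against 7.79, 8.61, 9.28 and 9.44 FPKM in WT A to D, where WT A lay within the POLG range. The adjusted p from limma was 0.208 for Pmpca, 0.724 for Pmpcb and 0.223 for Pitrm1. Exons of Pmpca overlap Inpp5e on the opposite strand over 874 bases, and those of Pitrm1 overlap Pfkp over 748 bases.

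Of the chaperonin partners, Hspe1 had groups that separated and Hspd1 had groups that overlapped, and neither passed. Hspe1, the lid of the Hsp60 chamber, was at 36.1, 37.9, 38.3 and 27.8 FPKM in POLG E to H, against 43.9, 51.2, 46.8 and 55.3 FPKM in WT A to D. Every POLG library lay below every WT library, POLG H was lowest and WT D highest, and the log2 fold change was -0.49 (95% interval -0.76 to -0.21), which missed the threshold (limma, adjusted p = 0.0682). With genes averaging under 5 FPKM left out, the log2 fold change of Hspe1 passed (limma, adjusted p = 0.0498). It did not pass with no filter (limma, adjusted p = 0.222), with 1 library left out (0.0904 to 0.179) or without WT C and WT D (0.276). Hspd1, the chamber itself, was at 92.4, 89.995, 101 and 72.9 FPKM in POLG E to H, against 104, 109.7, 87.2 and 95.9 FPKM in WT A to D. Here the groups overlapped, WT C lying below POLG E, F and G, and the log2 fold change was -0.16 (95% interval -0.42 to 0.098, limma adjusted p = 0.434). Exons of Hspe1 overlap those of Hspd1 on the opposite strand over 112 bases, 7.6% of the exonic bases of Hspe1.

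Of the other chaperones none passed. Hspa9, the import motor and the most abundant of the 46, averaged 125 ± 10.6 FPKM in POLG and 130.5 ± 4.82 FPKM in WT (SD, n = 4 each), and its log2 fold change was -0.061 (95% interval -0.24 to 0.11). Trap1, the mitochondrial Hsp90, was at 41.96, 44.8, 43.8 and 41.7 FPKM in POLG E to H, against 46.9, 47.7, 43.5 and 51.2 FPKM in WT A to D, with WT C inside the POLG range. Dnaja3, an Hsp40 partner of Hspa9, was at 22.6 to 29.5 FPKM in POLG and 20.8 to 27.4 FPKM in WT and had the log2 fold change nearest to 0 of the class (0.013). Clpb, a disaggregase of the intermembrane space, was at 4.01 to 4.68 FPKM in POLG and 3.92 to 5.02 FPKM in WT. The limma adjusted p was 0.677 for Hspa9, 0.314 for Trap1, 0.963 for Dnaja3 and 0.662 for Clpb.

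**Figure D3:**
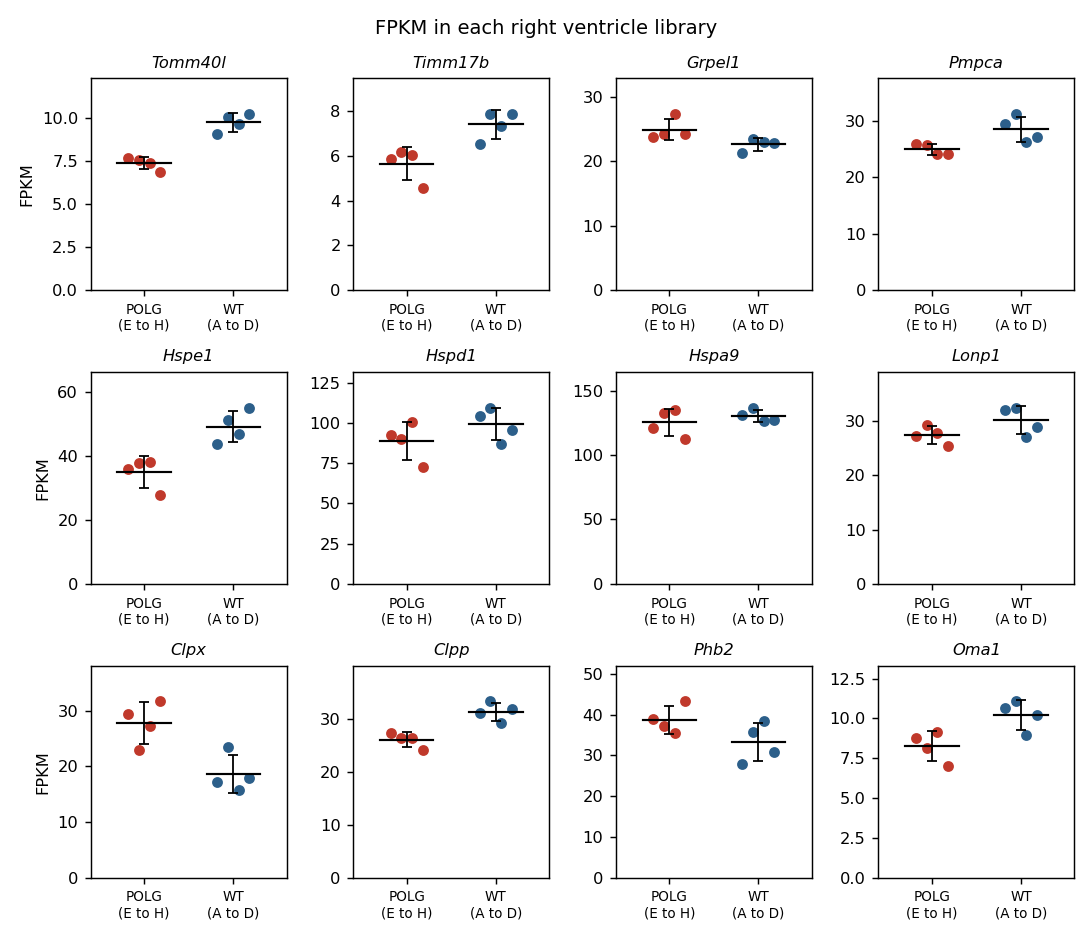
FPKM of 12 of the genes in each library, POLG left of WT, with the mean (long line) and SD (error bar) of 4 libraries. Tomm40l, Timm17b, Pmpca, Hspe1 and Clpp have POLG points wholly below the WT points, Grpel1 wholly above, and Clpx, at 22.9 to 31.7 FPKM in POLG and 15.8 to 23.6 FPKM in WT, overlaps through POLG F and WT B.

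The log2 fold changes of the ClpXP partners had opposite signs, and neither passed. Clpx, the unfoldase that feeds substrates to Clpp and that also acts on 5-aminolevulinate synthase in heme synthesis, was at 29.5, 22.9, 27.2 and 31.7 FPKM in POLG E to H, against 17.2, 23.6, 15.8 and 17.95 FPKM in WT A to D. POLG E, G and H lay above all WT libraries, and POLG F lay just below WT B. Its log2 fold change of 0.56 was the largest of the 46 genes (95% interval 0.24 to 0.88, limma adjusted p = 0.0696). With 1 library left out, the limma adjusted p of Clpx ran from 0.0368 (without WT B, where it passed) to 0.175. Without WT C and WT D it was 0.315. Clpp, the peptidase chamber, was at 27.3, 26.4, 26.3 and 24.1 FPKM in POLG E to H, against 30.99, 33.3, 29.2 and 31.8 FPKM in WT A to D. All POLG libraries lay below all WT libraries, with a log2 fold change of -0.26 (95% interval -0.42 to -0.091, limma adjusted p = 0.0956). The erythroid genes also moved with genotype: Alas2, the erythroid form of 5-aminolevulinate synthase, was at 18.6, 16.1, 28.2 and 20.1 FPKM in POLG E to H, against 3.67, 8.72, 5.63 and 7.55 FPKM in WT A to D. The order of the libraries matched in part. In both Alas2 and Clpx, WT B was the highest WT library and POLG F the lowest POLG library. The highest POLG library was G in Alas2 and H in Clpx, and the lowest WT library was A in Alas2 and C in Clpx. The part of erythroid RNA in the Clpx values was not tested.

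Lonp1, the main matrix protease, was at 27.3, 29.1, 27.8 and 25.3 FPKM in POLG E to H, against 31.96, 32.5, 27.02 and 28.95 FPKM in WT A to D, with WT C below POLG E, F and G. Its log2 fold change was -0.13 (95% interval -0.32 to 0.06, limma adjusted p = 0.388). Oma1, the stress-activated protease that cleaves Opa1, was at 8.77, 8.16, 9.17 and 7.03 FPKM in POLG E to H, against 10.6, 11.1, 8.93 and 10.2 FPKM in WT A to D, where only WT C fell within the POLG range (log2 fold change -0.27, limma adjusted p = 0.161). Yme1l1, the protease of the inner membrane that faces the intermembrane space, was at 4.58 to 4.95 FPKM in POLG and 4.94 to 5.32 FPKM in WT, with overlapping groups.

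The subunits of the m-AAA protease, which faces the matrix, had values on both sides of 0 and none passed. Afg3l2 was at 12.9, 13.5, 13.1 and 12.2 FPKM in POLG E to H, against 12.04, 12.2, 11.6 and 11.9 FPKM in WT A to D, POLG H being equal to WT B to within 0.01 FPKM and the other POLG libraries higher. Afg3l1, a subunit that is active in mice, was at 9.35, 9.06, 9.37 and 8.76 FPKM in POLG E to H, against 11.1, 9.99, 8.199 and 10.6 FPKM in WT A to D. Spg7, the subunit that forms mixed rings with Afg3l2, was at 15.2, 17.03, 15.5 and 19.7 FPKM in POLG E to H, against 16.03, 18.7, 17.4 and 17.8 FPKM in WT A to D, with POLG H highest. The limma adjusted p was 0.375 for Afg3l2, 0.543 for Afg3l1 and 0.777 for Spg7.

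The prohibitins form ring scaffolds around the m-AAA protease. Phb2 was at 38.9, 37.3, 35.4 and 43.3 FPKM in POLG E to H, against 28.0, 35.7, 38.4 and 30.9 FPKM in WT A to D, its log2 fold change of 0.22 being the second highest of the 46 (95% interval -0.034 to 0.47, limma adjusted p = 0.284). Phb was at 48.05, 54.5, 52.3 and 53.2 FPKM in POLG E to H, against 55.1, 57.9, 52.2 and 59.1 FPKM in WT A to D, with a log2 fold change of -0.11. Htra2, a serine protease between the membranes, had the highest SD relative to its mean of the 46 within WT, 23.4% (2.38 to 4.44 FPKM in POLG and 2.61 to 4.25 FPKM in WT), and Parl, the rhomboid protease that cleaves Pink1, the lowest, 0.879% (6.59 to 7.71 FPKM in POLG and 6.76 to 6.89 FPKM in WT). Exons of Htra2 overlap Aup1 on the opposite strand over 753 bases.

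Ratios of 2 genes within a library do not depend on how the libraries were scaled. They were read for 11 pairs of paralogs or partners, and 3 did not overlap between the groups. The share of other gene pairs that separate was not computed, so this count has no background beside it. Clpx/Clpp was 1.08, 0.867, 1.03 and 1.31 in POLG E to H, against 0.554, 0.709, 0.543 and 0.565 in WT A to D. Every POLG library lay above every WT library, by a mean log2 difference of 0.85, and leaving out 1 library gave 0.75 to 0.95 and leaving out WT C and WT D gave 0.76. Tomm40l/Tomm40 was 0.772, 0.657, 0.699 and 0.709 in POLG E to H, against 0.868, 0.922, 0.791 and 0.909 in WT A to D, a log2 difference of -0.30. Timm17b/Timm17a was 0.518, 0.525, 0.562 and 0.427 in POLG E to H, against 0.621, 0.692, 0.622 and 0.683 in WT A to D, a log2 difference of -0.37. In both of these pairs each POLG ratio lay below each WT ratio. With the FPKM of the copy Gm7180 (2.85 to 4.29 FPKM) added to Timm17a, the groups of Timm17b/Timm17a overlapped, at 0.306 to 0.444 in POLG and 0.441 to 0.531 in WT, with a log2 difference of -0.31. These ratios were chosen with earlier results of the data known and carry no test.

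**Figure D4:**
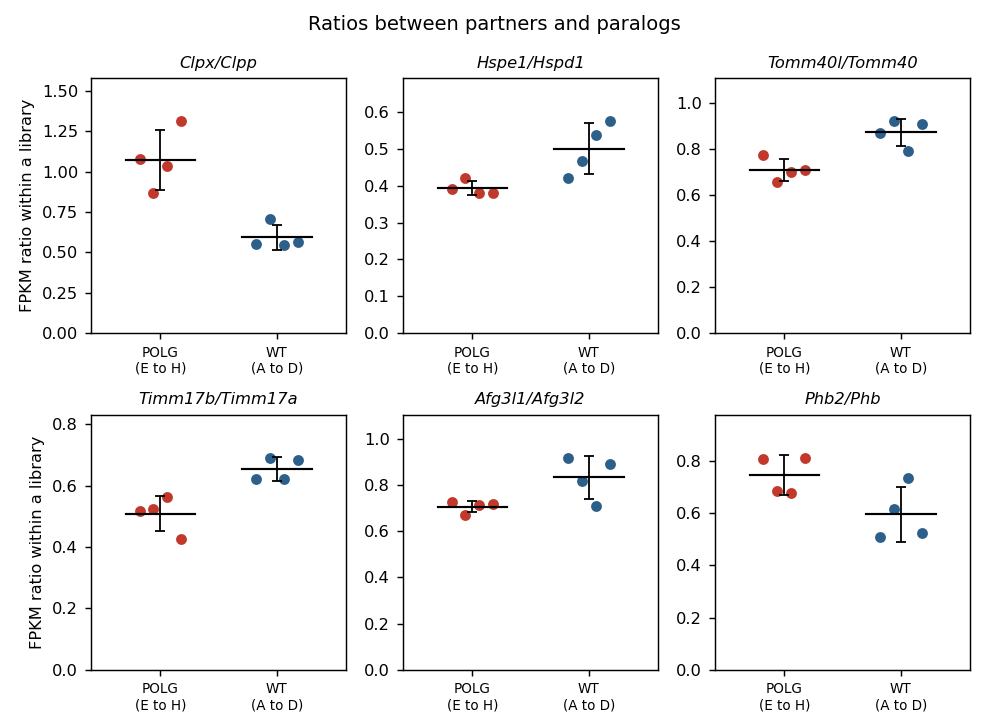
Ratio of the FPKM of 2 genes within each library for 6 of the 11 pairs, POLG left of WT, with mean (long line) and SD (error bar) of 4 libraries. Clpx/Clpp lies at 0.867 to 1.31 in POLG and 0.543 to 0.709 in WT, and Tomm40l/Tomm40 and Timm17b/Timm17a separate in the other direction, Timm17b/Timm17a only while the copy of Timm17a is left out.

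Hspe1/Hspd1 was 0.391, 0.422, 0.381 and 0.381 in POLG E to H, against 0.421, 0.467, 0.537 and 0.576 in WT A to D. The POLG ratios were tightly grouped, the WT ratios were spread, and POLG F and WT A met at 0.42. The log2 difference was -0.34, and it was -0.17 without WT C and WT D. Both genes have near-identical copies, Hspd1-ps3 (99% identical over 1722 bases, 2.30 to 19.6 FPKM) and a gene annotated as AC117239.2 (99% over 515 bases, 3.27 to 6.97 FPKM). Hspd1-ps3 was listed at 17.25, 18.0 and 19.6 FPKM in POLG F, WT C and WT D and at no more than 4.25 FPKM in the other libraries. With the FPKM of the copies added (a choice made once the values had been seen), Hspe1/Hspd1 was 0.415, 0.401, 0.405 and 0.402 in POLG E to H, against 0.469, 0.491, 0.498 and 0.539 in WT A to D. The groups then did not overlap, with a log2 difference of -0.30, and FPKM of transcripts of unlike length add only roughly.

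The remaining pairs overlapped. Afg3l1/Afg3l2 was 0.672 to 0.727 in POLG and 0.708 to 0.919 in WT, where only WT C reached the POLG range. Phb2/Phb was 0.677 to 0.813 in POLG and 0.508 to 0.735 in WT, with WT C again inside the POLG range. Timm10/Timm9 was 22.97 to 28.3 in POLG and 11.5 to 23.3 in WT, POLG H and WT B lying side by side. The ratios Pmpca/Pmpcb (1.26 to 1.49 in POLG and 1.46 to 1.604 in WT), Grpel2/Grpel1 (0.0626 to 0.0748 and 0.0622 to 0.0864), Spg7/Afg3l2 (1.18 to 1.61 and 1.332 to 1.53) and Timm8b/Timm13 (3.39 to 4.996 and 3.66 to 4.71) were mixed between the groups.

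Reads of several of these genes could be split with copies elsewhere in the genome. The processed pseudogene Gm10171 matches Timm23 at 100% over 628 bases and was listed at 49.9 to 58.2 FPKM, close to Timm23 itself, so the level of Timm23 is uncertain by that much. Gm7666 matches Phb at 99.9% over 819 bases and was at 23.5 to 32.6 FPKM, and Gm14494 matches Tomm20 at 99.5% over 435 bases and was at 7.77 to 10.5 FPKM. With copies added, the POLG and WT values of Tomm20 no longer overlapped, POLG being higher, with a log2 fold change of 0.17 (limma, adjusted p = 0.179). None of the genes with a copy passed the test with it added.

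Genes outside the 46 that serve the same path were read from lists written with earlier results of the data known. Of 42 other genes of import, folding and proteolysis, 38 were tested and 0 passed limma in either direction. At an unadjusted p under 0.05, 1 was higher (2.63%, beside 4.61% of all genes tested) and 10 were lower (26.3%, beside 17.6%). POLG lay wholly above WT in 1 of them (2.63%, beside 2.96%) and wholly below in 11 (28.9%, beside 12.9%). Their median log2 fold change was -0.11, beside -0.087 for all genes tested, and 30 of 38 lay below 0, beside 68.3% of all genes. After median ratio scaling their median was -0.019, beside 0.0047. The smallest adjusted p belonged to Mipep, which removes an octapeptide after the first cut of some presequences, at 10.03, 10.7, 9.89 and 9.11 FPKM in POLG E to H, against 13.2, 13.8, 11.4 and 12.4 FPKM in WT A to D (log2 fold change -0.32, limma adjusted p = 0.0729). Pet100, an assembly factor of complex IV, was at 2.46 to 3.02 FPKM in POLG and 3.17 to 3.54 FPKM in WT (adjusted p = 0.0879), Samm50, the core of the sorting and assembly machinery of the outer membrane, at 24.8 to 27.04 FPKM in POLG and 29.4 to 31.7 FPKM in WT (adjusted p = 0.102) and Mtx1, its partner, at 2.56 to 3.02 FPKM in POLG and 3.42 to 4.64 FPKM in WT (adjusted p = 0.110). In these 4 genes each POLG library lay below each WT library.

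The list of cytosolic chaperones and related genes, some of which hand precursors to TOM, also gave 0 calls by limma of 27 tested. At an unadjusted p under 0.05, 0 were higher, beside 4.61% of all genes tested, and 8 were lower (29.6%, beside 17.6%). POLG lay wholly above WT in 0, beside 2.96%, and wholly below in 4 (14.8%, beside 12.9%). Their median log2 fold change was -0.16, beside -0.087 for all genes tested. After median ratio scaling it was -0.047, beside 0.0047. Stub1, an ubiquitin ligase that works with Hsp70, was at 22.2 to 24.5 FPKM in POLG and 27.2 to 29.4 FPKM in WT (limma, adjusted p = 0.0696), and Bag1, an exchange factor of Hsp70, at 72.1 to 80.4 FPKM in POLG and 82.9 to 93.8 FPKM in WT (adjusted p = 0.1001). Cct8, a subunit of the cytosolic chaperonin, was at 22.2 to 25.05 FPKM in POLG and 26.9 to 28.6 FPKM in WT (adjusted p = 0.114), and Stip1, which joins Hsp70 to Hsp90, at 22.5 to 34.4 FPKM in POLG and 35.2 to 38.1 FPKM in WT (adjusted p = 0.124). In these 4 genes, too, POLG lay wholly below WT.

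Of the transcription factors tied to the mitochondrial unfolded protein response, Atf5 was the one whose groups separated. Atf5 was at 22.4, 24.6, 22.8 and 21.1 FPKM in POLG E to H, against 20.5, 18.1, 12.7 and 17.6 FPKM in WT A to D. Every POLG library was above every WT library, and the gene did not pass (log2 fold change 0.40, limma adjusted p = 0.137). Atf4 was at 23.7 to 29.7 FPKM in POLG and 22.7 to 34.004 FPKM in WT and Ddit3 at 4.096 to 6.79 FPKM in POLG and 5.04 to 7.5997 FPKM in WT, both with overlapping groups. Atf3, an early response gene, ranged over 11.1 to 80.2 FPKM in POLG and 2.01 to 48.3 FPKM in WT. Ubl5, a cofactor known from worms, was at 5.88 to 8.61 FPKM in POLG and 7.01 to 8.95 FPKM in WT.

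In the promoter windows, 39 of the 46 genes had an entry. Tomm7, Tomm40l, Timm21, Grpel2, Hspa9, Afg3l2 and Htra2 had none. The GC box was in 24 of the 39 (61.5%), against 38.2% of 27025 genes with a window, and the ETS-type motif was in 15 (38.5%), against 12.5%. The CCAAT box was in 13 (33.3%), against 41.1%, and the heat shock element in 4 (Timm9, Hspd1, Hspe1 and Parl), 10.3% against 9.04%. The motif of nuclear respiratory factor 1, a factor that drives many nuclear genes of mitochondria, was in 2 (Timm13 and Clpx), 5.13% against 1.95%. The cAMP response element TGACGTCA was in Trap1 alone (2.56% against 2.03%), and the C/EBP-ATF element TGATGNAA in 0 of the 39, against 4.51% of all genes. These are matches of letters on either strand, not shown sites of binding, and no test was run on them.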

How the data were processed

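The authors prepared poly(A) stranded libraries from flash frozen right ventricles, sequenced them in paired ends, mapped reads to mm10 with HISAT2 and normalized with StringTie. Further names in the submitters' processing notes are cutadapt, FastQC and edgeR, with versions not given in the sources used here. Deposited values are FPKM per gene for 8 libraries, with 0.0001 in place of 0, which was read as 0. The columns of fold change and its log2 hold the authors' own comparison and were not used. There were 0 unused FPKM columns. Whether fragments were counted by strand is not stated. Depth is known only roughly, because only 44.3% to 46.8% of low values came within 5% of whole fragments, so reads were not recovered and no count test was run.

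The test was limma 3.58.1 (R 4.3.3, prior variance trended on expression) on log2(FPKM + 1), for the 10236 genes averaging 1 FPKM or more. This scale understates the change of low genes. P values were adjusted by Benjamini and Hochberg over all genes tested, and a gene was called at an adjusted p under 0.05. Intervals are 95% intervals of the fit. The exact two-sided permutation test of 4 against 4 libraries has 70 assignments and cannot give a p below 0.0286. The labels do not say how libraries map to mice, and p values measure the spread between them. In simulated data for POLG against WT, with 200 of the 10236 genes altered, the step recovered 0% of genes changed by a log2 of 0.25, 37.5% at 0.5 and 82.5% at 1. The altered genes all averaged 5 FPKM or more.

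Of 55421 table entries 54673, and all 46 genes, matched GENCODE M21 (GRCm38, the same assembly as mm10) by gene identifier. Copies were sought with BLAST+ 2.17.0, at 95% identity or more over 200 bases or more. Motifs were searched in Python 3.11.15 in RefSeq windows, and figures drawn with matplotlib 3.10.9. The 46 genes, the pairs and the other lists were chosen with earlier results of these data known. Each gene is named with its level. Values in every library are given for genes that passed, for partner pairs and for the 3 genes of each class with the smallest adjusted p. From the other lists the 4 genes with the smallest adjusted p are named. Alternatives were other pseudocounts (0.1 and 5), all genes or those from 5 FPKM up, scaling by median ratio, by quantiles or to nuclear genes, an untrended or robust prior, weighted libraries, the exact permutation test, the log2 ratio of mean FPKM, and each library left out in turn.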

Additional observations from a re-analysis of the deposited data

Results flagged for a closer look

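In 114 groups of 4 libraries (46 genes and 11 ratios, each in POLG and in WT), 10 had 1 library far from the other 3, where chance gives about 1 in 20. POLG H was the far library in 4 of them and lowest each time. It had 24.3 FPKM of Tomm7, against 28.6 to 29.5 FPKM in the other POLG libraries, 12.3 FPKM of Tomm20, against 14.8 to 15.1 FPKM, and 4.58 FPKM of Yme1l1, against 4.90 to 4.95 FPKM. Its Timm10/Timm9 ratio was 23.0, against 28.0 to 28.3. POLG E had 1.17 FPKM of Timm9, against 1.40 to 1.43 FPKM in the other POLG libraries. POLG G had 27.4 FPKM of Grpel1, against 23.8 to 24.2 FPKM, and POLG F had 4.68 FPKM of Clpb, against 4.01 to 4.08 FPKM. Among the WT libraries, A had 20.8 FPKM of Dnaja3, against 26.7 to 27.4 FPKM, and C had 4.94 FPKM of Yme1l1, against 5.28 to 5.32 FPKM. WT B had a Clpx/Clpp ratio of 0.709, against 0.543 to 0.565 in the other WT libraries, and lay below the lowest POLG ratio of 0.867.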

How the results depend on the processing

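No paired analysis was possible because the libraries carry letters and the groups share no replicate number in the labels. The Tomm40l call was lost under several settings while its log2 fold change stayed between -0.39 and -0.33 with 1 library left out, against -0.36. Of the 46 genes, 0 were lower with no filter, under median ratio, quantile and nuclear scaling and without WT C and WT D, 2 (Tomm40l and Hspe1) with a filter at 5 FPKM, and 1 higher and 9 lower by the unadjusted permutation test. Leaving out 1 library gave 0 to 1 higher (Clpx without WT B) and 0 lower in each case. All tested genes called higher in POLG were 71 and all tested genes called lower in POLG were 217, against 129 and 120 under median ratio, 128 and 140 under quantile scaling, 120 and 354 with library weights, 303 and 1318 by the permutation test, 12 and 16 without WT C and WT D, 11 to 62 and 31 to 116 without 1 library, and 102 lower with no filter. The other import genes gave 1 lower with the 5 FPKM filter and with library weights, and 1 higher and 11 lower by permutation, and the cytosolic chaperones 1 and 4 lower with that filter and by permutation. The median log2 fold change of all genes tested was 0.0047 and the median log2 fold change of the members, the 46 genes, was 0.0046 under median ratio, and -0.0064 and -0.025 under quantile scaling. Genes of the 46 without overlap were 5 above and 5 below under median ratio (10.9% each, beside 6.68% and 6.85% of all genes). Under quantile scaling they were 3 and 5 (6.52% and 10.9%, beside 6.04% and 7.62%). Under nuclear scaling they were 0 above, beside 1.89%, and 11 below (23.9%, beside 14.4%). Without WT C and WT D, 1 lay above and 20 below (2.17% and 43.5%, beside 6.47% and 23.5% of all genes then tested). Without 1 library, 1 to 4 lay above and 9 to 16 below (2.17% to 8.70% and 19.6% to 34.8%). The shares of all genes were then 3.50% to 5.86% and 13.9% to 18.9%. Fewer libraries separate more easily in any gene. Of the 5 pairs with copies, adding them ended the separation of Timm17b/Timm17a and separated Hspe1/Hspd1. The Hspe1/Hspd1 log2 difference was -0.17 without WT C and WT D.

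A log2 fold change of Tomm22 and of other genes near 0 turned sign without being called. Under median ratio scaling this held for Tomm5 (0.027), Tomm22 (0.027), Tomm40 (0.016), Timm17a (0.085), Timm23 (0.11), Grpel2 (0.054), Pmpcb (0.058), Hspa9 (0.055), Clpb (0.020), Yme1l1 (0.011), Afg3l1 (0.00021), Spg7 (0.056), Htra2 (0.029) and Phb (0.0089). Under quantile scaling it held for Timm17a (0.057), Timm23 (0.052), Grpel2 (0.054), Pmpcb (0.010), Clpb (0.031), Yme1l1 (0.023), Spg7 (0.017) and Htra2 (0.039), under nuclear scaling for Dnaja3 (-0.033) and Parl (-0.011), with library weights for Tomm22 (0.0011) and Htra2 (0.096), and without WT C and WT D for Timm17a (0.020), Timm44 (-0.017), Grpel2 (0.017) and Htra2 (0.13). Without 1 library the ranges that crossed 0 were -0.078 to 0.072 for Dnaja3, -0.064 to 0.0032 for Grpel2, -0.21 to 0.053 for Htra2, -0.0098 to 0.056 for Parl, -0.075 to 0.051 for Timm23, -0.014 to 0.15 for Timm44 and -0.15 to 0.0067 for Tomm22. Pseudocounts of 0.1 and 5, no trend and a robust prior kept each gene on its side of the threshold and of 0. Leaving out WT C and WT D and adding copies were chosen after seeing the data, and the cause of these shifts was not tested. With 4 libraries a group, changes of a log2 of 0.25 were not recovered at an adjusted p under 0.05 in simulated data. The adjusted call therefore cannot tell changes of that size from none here. The simulation drew noise for each gene on its own, without shifts shared by the genes of a library.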
